A study of Mus musculus with 2 samples.

Results

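The 46 genes described here encode the synaptic vesicle and the presynaptic release machinery. They were chosen by symbol, matched by Ensembl gene identifier, and all 46 were found among the 43346 Ensembl genes of the tables and among 21474 protein-coding genes. They were measured by total RNA sequencing of whole forebrain of B6NTac;B6NCrl/Lap mice at birth (age 0 days, postnatal, sexes pooled, labelled healthy, with no treatment named in the labels). Both libraries belong to 1 group, forebrain at birth, with n = 2 libraries from separate isolates of the tissue. Replicate 1 is a pool of 15 mice, and the pool size of replicate 2 is not given in the sources used here. The labels give both isolates the same donor identifier, so each ± below is an SD that measures the spread between these libraries only. The design holds no second condition. The comparisons are therefore between genes and transcripts within the tissue, and between the libraries, and no significance test was made.

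A nerve terminal releases transmitter when a vesicle SNARE protein zips together with SNARE proteins of the plasma membrane and draws the membranes into fusion. Calcium sensors of the synaptotagmin and Doc2 families and the complexins set the timing of this step, active zone scaffolds hold vesicles near calcium channels and prime them, and Rab3 proteins bring vesicles to the site. After fusion, NSF and the soluble SNAPs take the SNARE complexes apart, and dynamin, amphiphysin, endophilin and synaptojanin recover the vesicle membrane. Many of these proteins exist as paralogs, or as splice forms, that rodent forebrain uses at different ages, and at birth most of its synapses have yet to form.

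Snap25 is a known case of such a switch, since its transcripts carry either exon 5a, the form of young neurons, or exon 5b, the form that prevails in adult brain. Both exons are coding and 118 nt long. Exon 5a of Snap25-202 lies at chr2:136769743-136769860 and exon 5b of Snap25-201 at chr2:136770057-136770174 (mm10, plus strand). They are shown because the share of exon 5a is one of the results below, and the capitals mark the 31 bases at which they differ.
Snap25 exon 5a: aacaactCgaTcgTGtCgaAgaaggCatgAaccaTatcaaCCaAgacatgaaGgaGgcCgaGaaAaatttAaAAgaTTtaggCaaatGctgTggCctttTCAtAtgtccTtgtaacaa
Snap25 exon 5b: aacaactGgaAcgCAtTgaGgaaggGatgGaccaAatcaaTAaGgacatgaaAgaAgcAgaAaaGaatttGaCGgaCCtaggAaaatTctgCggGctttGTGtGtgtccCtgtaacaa

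The files hold 62516003 expected counts in replicate 1 and 65912060 in replicate 2, and the members took 282965 (0.453%) and 335660 (0.509%) of them. Member genes held between 44 and 20504 counts in replicate 1 (median 5798.5) and between 16 and 19908 in replicate 2 (median 6708.5), so most levels rest on ample counts. Levels are given as coding TPM. TPM is a measure of transcript abundance corrected for length, here rescaled so that protein-coding genes alone make up the total. On this scale the median over all protein-coding genes was 7.46 in replicate 1 and 8.81 in replicate 2, and the ± of a level includes this shift. The direction between libraries can differ from that by the scaled counts used further below. Syp had 311 and 317 coding TPM but was higher in replicate 1 by scaled counts. Markers of telencephalon, the part of the forebrain that forms cortex and basal ganglia, were at 1 coding TPM or more in both libraries for 8 of 8 genes. Of 10 Hox markers of hindbrain and spinal cord, 9 were at 0 in both libraries.

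The presynaptic genes were broadly detected and stood high among protein-coding genes. Of 46 members, 45 reached 1 coding TPM in both libraries, beside 63.3% of all protein-coding genes. Only Cplx3 was under that level. The median member had 65.2 coding TPM in replicate 1 and 76.5 in replicate 2 (70.8 ± 7.98, SD, n = 2), beside a median of 8.13 ± 0.954 over all protein-coding genes and 26.9 ± 1.95 over the 13596 that reached 1 coding TPM in both libraries. By mean level, 44 members stood at or above the 50th percentile of protein-coding genes, 33 at or above the 75th, 17 at or above the 90th, 7 at or above the 95th and 0 at or above the 99th. Together they made up 0.438% of coding TPM in replicate 1 and 0.472% in replicate 2. In bulk tissue, fewer cells of a type and less RNA per cell cannot be told apart, so these levels are averages over neurons, glia and every other cell in the pool.

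**Figure D1:**
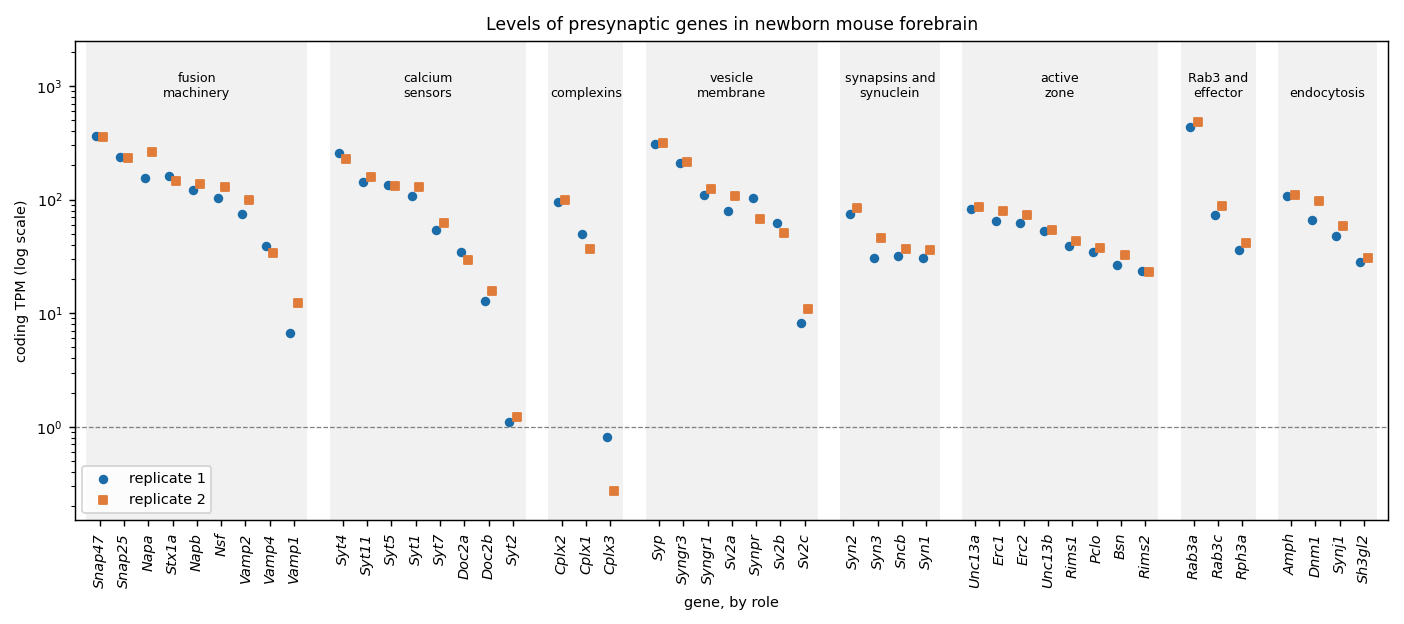
Coding TPM (log axis) of the 46 presynaptic genes in replicate 1 (circles) and replicate 2 (squares), grouped by role, with the dashed line at 1 coding TPM. Rab3a is the highest at 436 in replicate 1 and 480 in replicate 2, and Cplx3 alone lies under the line.

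The 9 genes of the fusion machinery had the highest median of the 8 role groups, at 128 ± 11.1 coding TPM. Snap47 (ENSMUSG00000009894.11, mm10 chromosome 11, 59407134 to 59451186, minus strand), a relative of SNAP-25 found on intracellular membranes, led with 362 coding TPM in replicate 1 and 355 in replicate 2. Snap25 itself (ENSMUSG00000027273.9, chromosome 2, 136713453 to 136782428, plus strand), the plasma membrane SNARE of neuronal exocytosis, had 237 and 234 coding TPM in replicates 1 and 2. Both libraries placed Snap47 above Snap25, by 1.53-fold and 1.51-fold. Napa, the alpha-SNAP adaptor that brings NSF to SNARE complexes, had 154 coding TPM in replicate 1 and 260 in replicate 2, the widest spread among the highest members, to which the account of its transcripts returns. Its brain-enriched paralog Napb had 120 and 136 coding TPM.

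Stx1a, the syntaxin partner of SNAP-25, averaged 153 ± 11.3 coding TPM, and Nsf, the ATPase that separates spent SNARE complexes, averaged 115 ± 18.5 (SD, n = 2 each). Vamp2, the main vesicle SNARE of forebrain synapses, had 74.4 coding TPM in replicate 1 and 99.97 in replicate 2. Vamp4, a SNARE of the trans-Golgi and endosomes, averaged 36.1 ± 3.72. Vamp1, the vesicle SNARE typical of brainstem and spinal cord, was the lowest of the group at 6.65 coding TPM in replicate 1 and 12.2 in replicate 2. Every other gene of the fusion machinery was above Vamp1 in both libraries.

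Among the 8 calcium sensors, the most abundant was not the fast sensor Syt1. Syt4, whose first C2 domain binds calcium poorly, had 256 coding TPM in replicate 1 and 228 in replicate 2. Syt11, a close relative with the same property, had 143 and 158, and Syt5, a synaptotagmin of dense-core vesicles, had 136 and 130. Syt4 was the highest of the sensors and Syt11 stood above Syt5 in both libraries.
Syt1, the fast calcium sensor of forebrain synapses, had 108 coding TPM in replicate 1 and 128 in replicate 2, below Syt4 in both. Syt7, a high-affinity sensor of slow release, averaged 58.2 ± 5.42 (SD, n = 2). Doc2a had 34.8 and 29.6 coding TPM and Doc2b had 12.8 and 15.6 in replicates 1 and 2. Syt2, the fast sensor of caudal synapses, was the lowest sensor at 1.11 and 1.23 coding TPM, from 157 and 195 counts.

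Of the complexins, which bind assembled SNARE complexes, Cplx2 had 95.3 coding TPM in replicate 1 and 98.5 in replicate 2. Cplx1 had 49.5 and 36.6. Cplx3, the complexin of retinal ribbon synapses that is also a marker of cortical subplate neurons, had 0.812 and 0.272 coding TPM from 44 and 16 counts. All 3 complexins therefore kept the same order in both libraries, with Cplx3 far under the others.

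The 7 vesicle membrane proteins ran from 314 ± 4.79 coding TPM for Syp to 9.57 ± 1.94 for Sv2c (SD, n = 2). Syp, or synaptophysin (ENSMUSG00000031144.11, chromosome X, 7638471 to 7653256, plus strand), had 311 coding TPM in replicate 1 and 317 in replicate 2. Syngr3 had 211 and 213, and Syngr1 had 109 and 123 (both synaptogyrins, vesicle proteins that cross the membrane several times). Synpr, or synaptoporin, the synaptophysin relative known from hippocampal mossy fibres, had 103 coding TPM in replicate 1 and 67.3 in replicate 2. Sv2a, the transporter-like vesicle protein that binds levetiracetam, had 80.0 and 108. Sv2b had 61.7 and 50.9, and Sv2c, which is best known from basal ganglia, had 8.20 and 10.9.

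Synapsins, which tether vesicles to each other and to actin, were at moderate levels. Syn2 had 74.3 coding TPM in replicate 1 and 84.9 in replicate 2. Syn3, the synapsin of immature neurons, had 30.4 and 45.8, and Syn1, the most studied adult form, had 30.9 and 35.7. Sncb, or beta-synuclein, had 31.7 and 36.6. The mean levels of Syn3 (38.1 ± 10.9), Sncb (34.1 ± 3.47) and Syn1 (33.3 ± 3.44) lay close together, and Syn2 was above them in both libraries. Sncb was slightly above Syn1 in both libraries. Syn3 was below Sncb and Syn1 in replicate 1 and above them in replicate 2.

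All 8 active zone genes lay in a narrow band between 23.3 and 84.0 coding TPM. Unc13a, or Munc13-1, the main priming factor of excitatory terminals, had 82.2 coding TPM in replicate 1 and 85.9 in replicate 2. Erc1 had 64.4 and 79.4 and Erc2 had 62.2 and 73.5 (both ELKS scaffolds). Unc13b, or Munc13-2, averaged 53.2 ± 1.01, and the RIM scaffold Rims1 averaged 40.9 ± 3.10. Pclo and Bsn, the very large scaffolds piccolo and bassoon, averaged 36.2 ± 2.19 and 29.6 ± 4.40. Rims2 was lowest with 23.5 and 23.1. No active zone gene reached the level of Syp, Snap25 or Rab3a in either library.

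Rab3a (ENSMUSG00000031840.8, chromosome 8, 70754679 to 70758677, plus strand), a GTPase carried by synaptic vesicles, was the highest of all 46 members. It had 436 coding TPM in replicate 1 and 480 in replicate 2, and ranked 253 among protein-coding genes. Rab3c had 73.2 and 88.2, and Rph3a, or rabphilin, which binds active Rab3, had 36.0 and 41.1. Of the 4 endocytic members, Amph (amphiphysin) had 107 and 110 coding TPM, Dnm1 (neuronal dynamin) 65.9 and 96.4, Synj1 (synaptojanin, a lipid phosphatase) 47.6 and 58.4, and Sh3gl2 (endophilin A1) 28.4 and 30.7. Their order was the same in both libraries.

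Paralogs were set against each other within each library, where depth and scaling cancel, in 21 pairs. In 7 of them the first gene is, by general knowledge of rodent brain, the form that is used earlier or more broadly. That gene was higher in both libraries in 5 of the 7. The pairs were chosen with earlier results of these data known, so this count is a description and no test of early use. Syt1 exceeded Syt2 by 97.9-fold in replicate 1 and 104.6-fold in replicate 2, with bounds of 43.6 to 107 and 47.0 to 110 from the deposited TPM intervals, with Syt2 at only 0.15 and 0.27 TPM before rescaling. Vamp2 exceeded Vamp1 by 11.2-fold and 8.19-fold. Cplx2 exceeded Cplx1 by 1.92-fold and 2.69-fold, and Sv2a exceeded Sv2b by 1.30-fold and 2.12-fold, so these excesses were smaller.

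The other 3 pairs gave no uniform picture. Napa over Napb was 1.28 in replicate 1 and 1.91 in replicate 2, but 0.736 and 0.631 when only transcripts annotated as protein-coding were summed, so the order of this pair turned with the transcripts counted. Syn3 over Syn1 was 0.986 and 1.28, on either side of equality, with bounds of 0.904 to 1.10 and 1.19 to 1.40. Doc2b over Doc2a was 0.369 and 0.526, with Doc2a, the form linked to synapse formation, higher in both libraries. At a threshold of 2-fold in both libraries, only Syt1 over Syt2 and Vamp2 over Vamp1 remained of the 7. Their lower members are better known from caudal brain, and the part of region or age in these ratios was not tested.

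In the 14 other pairs the first gene was higher in both libraries in 7 and the second in 7. Rab3c was at 0.168 and 0.184 of Rab3a, Synpr at 0.331 and 0.212 of Syp, Sv2c at 0.133 and 0.215 of Sv2b, and Cplx3 at 0.00852 and 0.00276 of Cplx2. Syn2 exceeded Syn1 by 2.41-fold and 2.38-fold, and Syt11 exceeded Syt7 by 2.63-fold and 2.55-fold, each with little change between libraries. Erc1 and Erc2 were close to equal, with ratios of 1.03 and 1.08 that became 0.696 and 0.729 over protein-coding transcripts alone. Pclo over Bsn was 1.31 and 1.15, and 0.972 and 0.871 over protein-coding transcripts. Across all 21 pairs the order of the ratios was the same in both libraries in 20, the exception being Syn3 and Syn1. For Erc1 over Erc2, however, the bounds in replicate 1, 0.988 to 1.09, included equality.

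**Figure D2:**
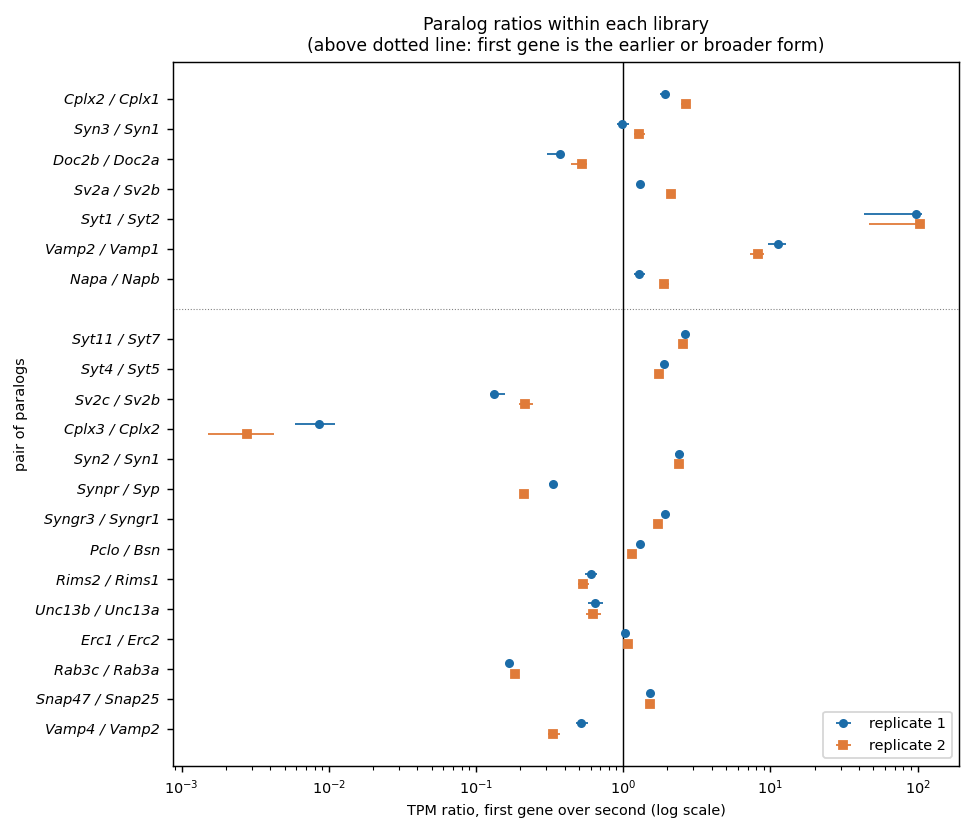
Ratio of TPM of the first over the second paralog (log axis) for 21 pairs in replicate 1 (circles) and replicate 2 (squares), with bars from the deposited TPM interval bounds and the vertical line at equality. Syt1 over Syt2 lies near 100 in both libraries, Doc2b over Doc2a lies left of equality in both, and Syn3 over Syn1 straddles it.

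Set within their whole families, members took very different shares of the family's summed level. Syt4 held 22.9 ± 3.22% of 16 synaptotagmins, ahead of Syt11 (14.2 ± 0.173%), Syt5 (12.6 ± 1.10%) and Syt1 (11.1 ± 0.653%). Cplx2 held 69.1 ± 5.21% of 4 complexins, Rab3a 71.8 ± 1.20% of 4 Rab3 GTPases, and Synj1 88.9 ± 1.33% of both synaptojanins. Syp held 75.02 ± 4.55% of the 4 synaptophysin-like genes and Stx1a 63.4 ± 4.60% of 5 plasma membrane syntaxins.
In some families genes outside the 46 led. The short RIM proteins Rims3 (38.4 ± 2.50%) and Rims4 (28.2 ± 0.876%) exceeded the full-length forms Rims1 (21.2 ± 0.363%) and Rims2 (12.1 ± 1.26%). Sh3gl3 and Sh3gl1 exceeded Sh3gl2, the brain endophilin, which held 18.1 ± 0.582%. The 3 dynamins were at 38.1 ± 4.33% for Dnm1, 31.0 ± 3.95% for Dnm2 and 30.8 ± 0.384% for Dnm3 (SD, n = 2 for each share). Dnm1 was the highest of them in both libraries, narrowly in replicate 1 (35.1%, beside 33.8% for Dnm2) and more clearly in replicate 2 (41.2%, beside 30.6% for Dnm3). Dnm2 and Dnm3 changed order between the libraries.

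**Figure D3:**
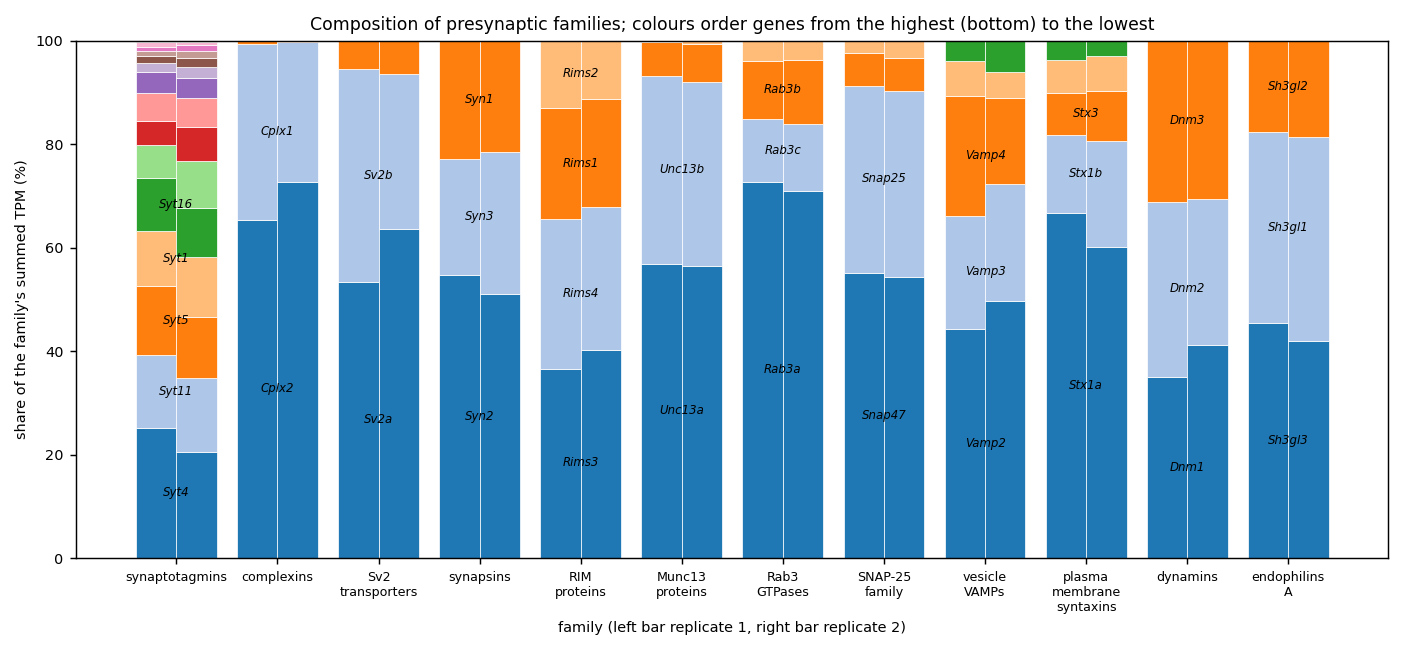
Share of each family's summed TPM (%) held by its genes in replicate 1 (left bar) and replicate 2 (right bar) for 12 families, stacked from the highest gene at the bottom, with names centred on the blocks of replicate 1. Rab3a and Cplx2 fill most of their bars, while Syt4, the highest synaptotagmin, averages 22.9% of its family.

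The members were set beside further presynaptic genes, 95 of 96 listed (Vamp7 was not used here). The median was 70.8 ± 7.98 coding TPM for the members and 41.6 ± 1.23 for these genes, of which 89 were at 1 coding TPM or more in both libraries. Clta, Ap2m1 and Ap2s1, parts of the clathrin coat and its AP-2 adaptor, averaged 626 ± 98.4, 608 ± 5.62 and 525 ± 34.2 coding TPM, above every member, and Synj2 was the lowest endocytic gene at 6.54 ± 0.0600. Dnajc5, the vesicle chaperone CSP, averaged 299.8 ± 78.2 and Tprgl 187 ± 13.0, while Syngr4 was counted 5 times in replicate 1 and 0 times in replicate 2.
Among active zone and Rab-related genes, Lin7c averaged 235 ± 52.5, Brsk1, a kinase of neuronal polarity, 187 ± 10.9, and Cask 157 ± 26.7, with Unc13d, the Munc13 of blood cells, lowest at 0.630 ± 0.265. Ykt6, Stx7 and Stx12, SNAREs of Golgi and endosomes, averaged 182 ± 11.0, 171 ± 1.41 and 168 ± 7.71, with Stx4a at 8.02 ± 1.19. Of the remaining synaptotagmins and complexins, Syt16 averaged 104 ± 0.571, Syt13 82.1 ± 23.6 and Syt3 60.5 ± 19.4, and Cplx4 was counted 2 times in replicate 1 and 0 times in replicate 2, and a count of 0 allows for up to 3.

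The ratio of replicate 1 over replicate 2 was taken from scaled counts on the log2 scale, with a standard error (SE) from counting and read assignment. Among the 45 members and 13591 protein-coding genes that reached 1 coding TPM in both libraries, 0 members were 2-fold or more apart, beside 2.65% of those genes, and 3 were 1.5-fold or more apart, beside 11.7%. Of all 46 members, 1 was 2-fold or more apart, beside 11.0% of the 17536 genes that averaged 10 or more counts and 7.58% of the protein-coding ones. It was higher in replicate 1, beside 5.16% of all genes, and 0 members were 2-fold higher in replicate 2, beside 5.82%. That gene was Cplx3, with 44 counts in replicate 1 and 16 in replicate 2 (log2 ratio 1.71, SE 0.416). At 1.5-fold, 4 members were apart, beside 22.4% of all genes. Of the 4, 3 were higher in replicate 1, beside 11.2% of all genes, namely Cplx3, Synpr (log2 ratio 0.80, SE 0.0326) and Cplx1 (0.60, SE 0.0471). Vamp1 was higher in replicate 2 (log2 ratio -0.67, SE 0.0899, from 390 counts in replicate 1 and 756 in replicate 2), beside 11.2% of all genes. In total 22 members were higher in replicate 1 and 24 in replicate 2, where 49.8% of all genes were higher in replicate 2, and the median log2 ratio was -0.01 over the members and 0.0027 over all genes.
For 34 members the 95% interval of the ratio left out equality, beside 67.6% of the 17536 genes. Among those at 1 coding TPM or more in both libraries it did so for 33 of 45 members, beside 70.7% of protein-coding genes, so the members stood near the background. Such intervals cover counting error and read assignment only, and hold no term for other variation between the isolates. Read assignment added to the error of only 1 member. The labels name no molecular identifiers, and without them PCR copies would count more than once.

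Markers of other regions and tissues, the diencephalon of the forebrain among them, moved between the isolates at the same time. The 7 diencephalon markers were all higher in replicate 2 (median log2 ratio -1.36), with summed levels of 41.6 coding TPM in replicate 1 and 74.6 in replicate 2, and none was at 0. The 5 meninges markers were also all higher in replicate 2 (median -1.19, sums 279 and 761 coding TPM). So were all 5 endothelium markers (median -0.27) and all 4 neuroendocrine markers that averaged 10 or more counts (median -0.29). By contrast, 5 of 6 astrocyte markers (median 0.28) and 5 of 6 microglia markers (median 0.11) were higher in replicate 1. Markers of radial glia and of the oligodendrocyte lineage went both ways. The 10 pan-neuronal markers had a median of 0.06 and the 8 telencephalon markers a median of -0.22. The telencephalon markers went both ways, between -1.72 for Six3 and 0.84 for Emx1, with 3 of 8 at least 1.5-fold apart. The part of these markers in the member ratios was not tested.

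**Figure D4:**
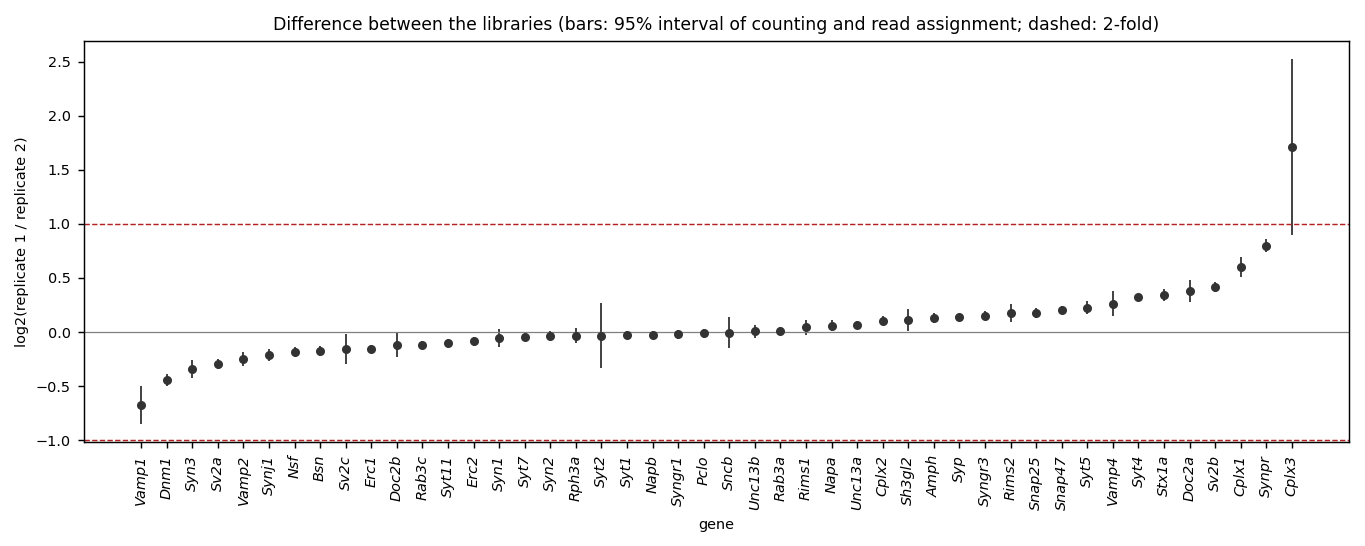
Log2 ratio of replicate 1 over replicate 2 for each of the 46 genes, ordered by size, with bars for the 95% interval from counting and read assignment and dashed lines at 2-fold. Cplx3 at 1.71 is the only gene past a dashed line, and Vamp1 at -0.67 is the lowest.

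Transcript shares, which are estimates from reads that several transcripts can share, show which forms of each gene made up these levels. Of the members, 9 had 1 annotated transcript and 37 had more. The same transcript led in both libraries for 32 of the 37, and the leading transcript was annotated protein-coding in both libraries for 36. It held 90% or more in both libraries for 8 members and under 60% in at least 1 library for 13.

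For Snap25, the transcript with exon 5a held 36.9% of the TPM of both coding forms in replicate 1 and 36.8% in replicate 2 (36.8 ± 0.0803%), and the one with exon 5b held the rest. Of the counts, however, exon 5a forms had 1462 against 6100 in replicate 1 and 1531 against 6527 in replicate 2, or 19.3% and 19.0%. The size of the share therefore depends on the division by length, since Snap25-202 is annotated to end 1077 nt before Snap25-201. Exon 5b led on both scales in both libraries, but both scales rest on the same assignment of reads to these annotated ends. No annotated coding form joins exon 5a to the longer end, and reads over the exons themselves were not counted. The order of the exons was therefore not tested apart from that assignment. The isolates differed by far less than these scales did.

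Rab3a-201 held 71.8% in replicate 1 and 41.5% in replicate 2, and Rab3a-204 held 23.2% and 54.5%. The posterior SD of their counts was between 106 and 128, on 7673 and 5234 counts for Rab3a-201 and 2655 and 7385 for Rab3a-204, so the difference between the libraries exceeded the error of read assignment. Both encode the same coding sequence of 660 nt. They differ in the first exon, whose starts are 32 nt apart and whose ends are 5 nt apart, and in the end of the last exon, where Rab3a-204 (1442 nt) runs 42 nt beyond Rab3a-201 (1363 nt). The encoded protein is the same, and transcripts with that coding sequence held 97.9% and 97.7%. Both starts fall in the promoter window below (RefSeq, GRCm38.p6, chr8:70754453-70754752, plus strand), which covers 250 bases before a RefSeq start and 50 after it. It is shown because Rab3a is the highest member and because the transcripts whose shares differ between the libraries both start in it. The capitals mark 2 GC boxes, read as CCGCCC, the reverse complement of GGGCGG. A second RefSeq window of Rab3a, at chr8:70754852-70755151, holds 0 GC boxes.
Rab3a promoter: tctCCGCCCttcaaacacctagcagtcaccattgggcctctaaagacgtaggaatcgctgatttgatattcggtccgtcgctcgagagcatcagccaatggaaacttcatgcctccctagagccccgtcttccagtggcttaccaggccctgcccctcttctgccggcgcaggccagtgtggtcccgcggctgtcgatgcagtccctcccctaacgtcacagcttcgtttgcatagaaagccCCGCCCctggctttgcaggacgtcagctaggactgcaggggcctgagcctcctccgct

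Promoter sequence of this kind was found for 36 of the 46 members. A gene counted as holding a motif if any of its windows held it, and genes differ in their number of windows. A GC box (GGGCGG, either strand) was present in 29 of 36 (80.6%), beside 69.5% of 10598 protein-coding genes at 1 coding TPM or more in both libraries and 38.2% of all genes with a promoter. TATAAA was present in 1, Sv2b, which has 4 windows (2.78%, beside 8.64%). The cyclic AMP response element TGACGTCA was present in 3, Napa, Sh3gl2 and Syn1 (8.33%, beside 3.56%). None of these motifs contains another, and a match is a description of the sequence only. Each gene entered the GC content with its window of highest GC, and the median of these was 65.2% in members and 62.3% in the detected protein-coding genes.

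By share, the leading transcript of Vamp1 and Syn1 also differed between the libraries, and here the coding ends differ. Vamp1-201 held 57.5% in replicate 1 and 40.1% in replicate 2, and Vamp1-203 held 28.7% and 42.5%, from 211 and 295 counts for Vamp1-201 and 116 and 343 for Vamp1-203. Vamp1-201 splices to a further exon, while Vamp1-203 reads on past the splice site (chr6:125219586-125220063 and chr6:125219586-125219648, mm10, plus strand). The last coding stretches are shown to let the ends be compared, with capitals for the letters after the splice position.
Vamp1-201: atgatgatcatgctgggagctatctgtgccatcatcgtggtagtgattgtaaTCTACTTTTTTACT
Vamp1-203: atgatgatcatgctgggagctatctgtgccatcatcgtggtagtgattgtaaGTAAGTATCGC

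Syn1-201 held 50.1% in replicate 1 and 46.8% in replicate 2, and Syn1-202 held 49.9% and 53.2%, so the forms were close to equal. By counts Syn1-202 led in both libraries, with 1018 and 1368 beside 1005 and 1183 for Syn1-201. The posterior SD of these counts was 67.8 in replicate 1 and 87.4 in replicate 2, so the order in replicate 1 lay within the error of read assignment. Syn1-201 begins its last coding exon 38 nt further upstream than Syn1-202 (chrX:20861547-20861609, mm10, minus strand), and the capitals mark these letters, which are not a multiple of a codon and so shift the reading frame of what follows.
Syn1-201: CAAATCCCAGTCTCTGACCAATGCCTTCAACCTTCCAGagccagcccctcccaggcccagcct

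Napa, with the widest spread among the highest members, also differed between the libraries in its transcripts. Napa-201, which is protein-coding and 2517 nt long, had a share of 56.2% in replicate 1 and of 32.5% in replicate 2. Napa-204 is annotated as a retained intron and is only 476 nt long, and its share was 16.5% and 42.8%. Its counts were 128 and 553, beside 4324 and 4560 for Napa-201, and the log2 ratio of all Napa counts between the libraries was 0.06. In coding TPM, Napa-201 stood at 86.8 in replicate 1 and 84.4 in replicate 2, and Napa-204 at 25.5 and 111, so the difference lay in short forms that hold few counts. For Synj1, Synj1-208 held 29.0% and 28.8% and Synj1-210 held 28.9% and 31.2%, a near tie whose order turned. By counts Synj1-210 (7012 nt) led in both libraries, with 2045 and 2959 beside 986 and 1309 for Synj1-208 (3501 nt).

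Among the remaining members with a leading form under 60%, Sv2b-202 held 57.8% in replicate 1 and 79.3% in replicate 2 and shares its coding sequence with Sv2b-201. Syt7-203 held 58.7% and 65.2%, Dnm1-203 held 51.4% and 54.0%, and Rims1-202 held 41.4% and 39.1%. Pclo-204 held 55.9% and 54.0%, Unc13a-201 held 55.7% and 55.1%, and Unc13b-201 held 32.6% and 35.5%. Erc1-201 held 50.5% and 51.9%. Apart from Sv2b and Syt7, these shares moved little between the isolates. They divide counts by annotated length, and by counts Pclo-204 (6738 nt) and Rims1-202 (2411 nt) did not lead. Pclo-203 (17057 nt, a retained intron) had 3252 and 3709 counts, beside 2755 and 3171 for Pclo-204. Rims1-201 led in replicate 1 (935 counts, beside 760 for Rims1-202) and Rims1-206 in replicate 2 (973, beside 868). The other forms of this paragraph led by counts as well.
Transcripts annotated with a retained intron made up 20% or more of the TPM in both libraries for 3 members. They held 33.8% and 50.2% for Napa, 38.0% and 41.9% for Unc13b, and 25.4% and 24.3% for Pclo. For Erc1, transcripts annotated as targets of nonsense-mediated decay, which removes messages with early stop codons, held 30.8% and 31.7%. Total RNA depleted of ribosomal RNA also contains unspliced nuclear RNA, and its part in these shares was not tested.

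**Figure D5:**
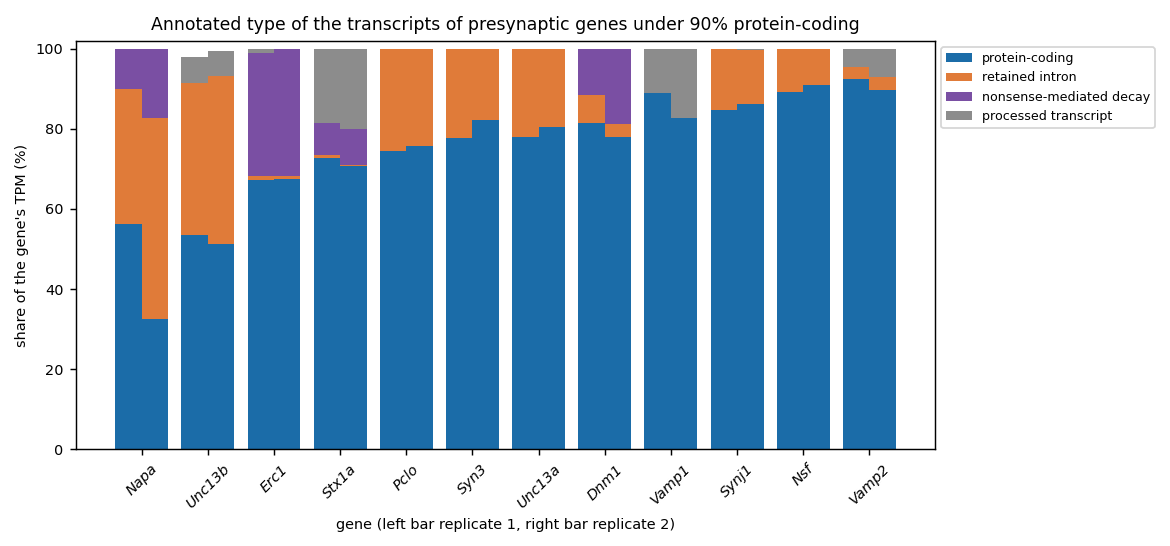
Share of the gene's TPM (%) by annotated transcript type in replicate 1 (left bar) and replicate 2 (right bar) for the 12 presynaptic genes with several transcripts and under 90% protein-coding in at least 1 library. Napa has 33.8% retained intron in replicate 1 and 50.2% in replicate 2, and Erc1 has 30.8% and 31.7% in decay targets. The bars of Unc13b stay short of the full height because 1 transcript had no match in the annotation.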

How the data were processed

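Total RNA over 200 nt, depleted of ribosomal RNA, was sequenced as stranded paired-end libraries with spike-ins, per the labels. The deposited expected counts, TPM, FPKM and isoform percent values were made for each library alone on mm10 with GENCODE M4, per the text supplied with the samples. No source used here names the aligner or the quantifier. The deposited posterior SD and TPM interval bounds were treated as scores and entered errors only.

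Symbols, types and coordinates came from GENCODE M21 for 42462 of 43346 genes. Coding TPM is TPM multiplied by 7.38 in replicate 1 and 4.54 in replicate 2. Counts were rounded and scaled with TMM (edgeR 4.0.16, R 4.3.3), with 0.5 added before log2, over the 17536 genes that averaged 10 or more counts. DESeq2 1.42.0 gave alternative size factors. The ratio step was tested on simulated data. Bounds of paralog ratios set the lower bound of each gene against the upper bound of the other. The libraries form 1 group, so no test between conditions was made. Values per library were given for the 3 highest and the lowest gene of each role group and for genes 2-fold apart. They were also given for the pairs whose first gene is the earlier or broader form. Of the further presynaptic genes, the highest 3 and the lowest of each list were named, and 1 result that meets this rule is not reported here. The members, lists and pairs were chosen with earlier results of these data known. Alternatives were other thresholds, scalings, FPKM, posterior means, filters, protein-coding transcripts only and leaving out each replicate. Python 3.11.15 with pandas 2.3.3 and matplotlib 3.10.9 served the other steps.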

Additional observations from a re-analysis of the deposited data

How the results depend on the processing

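Of 44 recomputed values, 38 stayed within the limits set for a change and 6 moved. These are counts, levels and shares, which hold no direction, but over protein-coding transcripts alone the first gene of 3 pairs was lower than the second in both libraries, the reverse of the order over all transcripts. The ratio of Napa over Napb was then 0.736 in replicate 1 and 0.631 in replicate 2. That of Erc1 over Erc2 was 0.696 and 0.729, and that of Pclo over Bsn 0.972 and 0.871. Over expected counts, not divided by length, Napa over Napb was also reversed, at 0.444 and 0.419. So were Syngr3 over Syngr1, at 0.897 and 0.796, and Rab3c over Rab3a, at 1.24 and 1.35. Doc2b over Doc2a was then 0.725 and 1.03, and the order was shared by both libraries in 18 pairs. With TPM as deposited, the median level of the members was 12.8 TPM in place of 70.8 coding TPM, because the deposited total includes abundant noncoding RNAs. At a threshold of 2-fold in both libraries, the earlier or broader paralog was higher in 2 pairs in place of 5. The order of the paralogs was then shared in 8 pairs in place of 20. A filter at a mean of 100 counts left 0 members 2-fold apart between the libraries, since Cplx3 falls under it, and a 1.5-fold threshold gave 4. The exon 5a share of Snap25 was 19.2% over counts in place of 36.8% over TPM. With 1 library left out at a time, 45 members reached 1 coding TPM each time, and the median ranged from 65.2 to 76.5 coding TPM. The earlier or broader paralog was then higher in 5 to 6 pairs. The leading transcript was protein-coding in 36 to 37 members, and the exon 5a share ranged from 36.8 to 36.9%. Results that need both libraries have no such value. Protein-coding transcripts only, as an alternative for the median and the detection count, were chosen after seeing the data. No paired analysis was possible because the libraries form 1 group. The depth limits chiefly Cplx3 and Syt2, and transcript shares depend on annotated lengths.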

Other observations

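The median was 70.8 ± 7.98 coding TPM for the 46 presynaptic genes and 69.7 ± 4.98 for 10 genes of the postsynaptic density, the receiving side of excitatory synapses (SD, n = 2). Gria2, a subunit of AMPA receptors, was the highest of the 10 with 273 coding TPM in replicate 1 and 297 in replicate 2. Camk2a, a kinase that is abundant in adult forebrain synapses, was the lowest with 19.6 and 24.0. The pan-neuronal list had a median of 261 ± 36.8.

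Vesicular transporters load transmitter into vesicles, and 5 are named here after their values were seen. Slc17a7 (VGLUT1) had 66.7 coding TPM in replicate 1 and 82.6 in replicate 2, Slc17a6 (VGLUT2) had 52.0 and 77.3, and Slc32a1, the GABA and glycine transporter, had 22.8 and 36.0. Slc18a2, the monoamine transporter, had 7.01 and 8.63, and Slc17a8 (VGLUT3) had 1.33 and 2.18. All 5 had the higher coding TPM in replicate 2, but so did the median over all protein-coding genes (7.46 and 8.81). From scaled counts, where 49.8% of all genes were higher in replicate 2, all 5 log2 ratios were negative. They ran from -0.50 for Slc32a1 to -0.14 for Slc18a2. The interval of Slc18a2 from counting and read assignment, -0.303 to 0.0168, included equality.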
